A study of Mus musculus with 2 samples.

Results

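The Ly6 surface antigen family was followed here as 8 genes, Ly6a, Ly6c1, Ly6d, Ly6e, Ly6f, Ly6h, Ly6i and Ly6k, of 19732 named genes on the array. Members were taken as the gene probes that carry the symbol of a member in the array files, which gave 8 probes for 7 genes. Under Ly6c, an older symbol of Ly6c1, stand 2 further probes, and both were read here as Ly6c1. This gave 10 probes for all 8 genes, of 41174 gene probes. One of the 2, A_51_P197528, carries no RefSeq accession, and whether it reports Ly6c1 was not tested. Granulocytes were compared with monocytes, both sorted from the bone marrow of male wild-type C57BL/6 mice, with 1 one-colour Agilent array per cell type and no replicate of either. Neither the antibodies used for sorting nor how many mice gave cells is stated in the sources used here. With 1 array per cell type no test was possible, no p-value is given, and a difference has no replicate check.

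Ly6 proteins are small surface proteins that fold into the disulfide-bonded three-finger shape of the Ly6/uPAR superfamily, and most hang from the outer membrane by a glycosylphosphatidylinositol (GPI) anchor. In the mouse many of their genes lie together in a cluster on chromosome 15. They are best known to haematologists as antibody targets. Ly6c marks classical monocytes when it is abundant and is also carried by granulocytes, the antigen known as Sca-1, encoded by Ly6a, marks blood stem cells and activated lymphocytes, and Ly6d marks lymphoid progenitors biased to the B lineage. Ly6g, the usual granulocyte antigen of such sorts, was not analysed here.

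The sequences below are those of the probes on which the comparison rests, as the array files give them, 5′ to 3′. Those of Ly6e and Ly6f are shown because these genes had the largest differences, in opposite directions. In the probes of Ly6a and Ly6c1, capitals mark bases that match between them in an ungapped stretch of 38 bases, since near-copies of a gene family can share signal. The remaining lines show the other Ly6c1 probe, the Ly6i probe and both probes of Ly6h.

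Ly6e (A_51_P148814): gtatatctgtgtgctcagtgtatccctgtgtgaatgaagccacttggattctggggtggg
Ly6f (A_51_P517695): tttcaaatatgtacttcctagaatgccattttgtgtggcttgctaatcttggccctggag
Ly6a (A_51_P265495): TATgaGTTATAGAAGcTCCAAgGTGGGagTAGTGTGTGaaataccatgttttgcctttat
Ly6c1 (A_52_P230938): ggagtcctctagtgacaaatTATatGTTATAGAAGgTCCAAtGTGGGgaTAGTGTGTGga
Ly6c1 (A_51_P197528): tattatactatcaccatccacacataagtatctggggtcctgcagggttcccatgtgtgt
Ly6i (A_51_P420918): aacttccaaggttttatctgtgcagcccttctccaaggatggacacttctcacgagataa
Ly6h (A_51_P407780): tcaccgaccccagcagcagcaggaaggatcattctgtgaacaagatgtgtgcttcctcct
Ly6h (A_51_P407786): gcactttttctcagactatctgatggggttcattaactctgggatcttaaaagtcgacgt

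All probes are 60 bases long, with a GC content between 38.3% for Ly6a and 55.0% for Ly6d. In the files' build, mm8, all 10 lie on chromosome 15, within 803.2 kb. The Ly6e probe lies at 74786292 to 74786351 and the Ly6f probe at 75099287 to 75099347, and these were the 2 probes placed on the plus strand, while the other 8 were on the minus strand. The Ly6i probe was placed at 74810293 to 74810352 and the Ly6a probe at 74822378 to 74822437. The Ly6c1 probes lie at 74872537 to 74872596 and at 74935462 to 74935520, those of Ly6d at 74589376 to 74589435 and of Ly6k at 74624354 to 74624413, and those of Ly6h at 75392479 to 75392538 and at 75392555 to 75392855. The last spans 301 bases, longer than the probe itself. Exons and gene ends of this build were not used here.

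Among the 45 pairs of member probes, compared on both strands without gaps, the Ly6a probe and the Ly6c1 probe A_52_P230938 were the most alike, with 32 of 38 bases the same (84.2%). Counted from the 5′ end of the Ly6a probe, with its base first and that of the Ly6c1 probe last, the mismatches were G4A, A5T, C16G, G22T, A28G and G29A. The next best stretch, between the Ly6e probe and the opposite strand of a Ly6h probe, held 16 matches in 20 bases. No probe of the family listed accessions that led to more than 1 RefSeq gene. The Ly6c1 probes had 2 accessions in common and 2 each of their own, the second probe carried no RefSeq accession and was described in the files as an mRNA for a Ly-6C variant, and the 2 lie 62.9 kb apart. Whether they report the same transcript was not tested.

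Markers of the labelled cell types were read first. All 10 neutrophil genes had a difference above 0, and 6 of them passed 4-fold on the granulocyte side. The differences ran from 9.65 for Mmp9, with 99246 intensity units in granulocytes against 226.7 in monocytes, to 1.06 for S100a9, which did not pass, with 293515 units in granulocytes against 257392 in monocytes. All 8 monocyte genes were lower in granulocytes, 7 of them at least 4-fold, including the chemokine receptor gene Ccr2 with 51.7 units in granulocytes against 19248 in monocytes. All 10 neutrophil genes were also well above background on the monocyte array, where their summed level was 1042 times that array's 75th percentile, against 4119 times on the granulocyte array.

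Signal is given below as the processed intensity of the single spot of each probe, with the error that the scanner software assigns to it. That error covers the spot and not the spread between mice or extracts. For all but the dim probes of Ly6h and Ly6k it was 0.14 on the log2 scale on each array, whatever the signal. It thus serves below as a near-fixed margin. Differences are log2 of granulocyte over monocyte after each array was scaled to its 75th percentile, 339.4 in granulocytes and 620.9 in monocytes. Because of this scaling a probe with equal raw signal on both arrays has a difference of 0.87. Across the 28045 gene probes with a value the median difference was 0.46, and the 9 member probes above background had a median of 0.96. Repeated spots of a probe had a median SD of 0.07 in granulocytes and 0.07 in monocytes on the log2 scale, while the software's error of a single difference was 0.20 for most members.

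**Figure D1:**
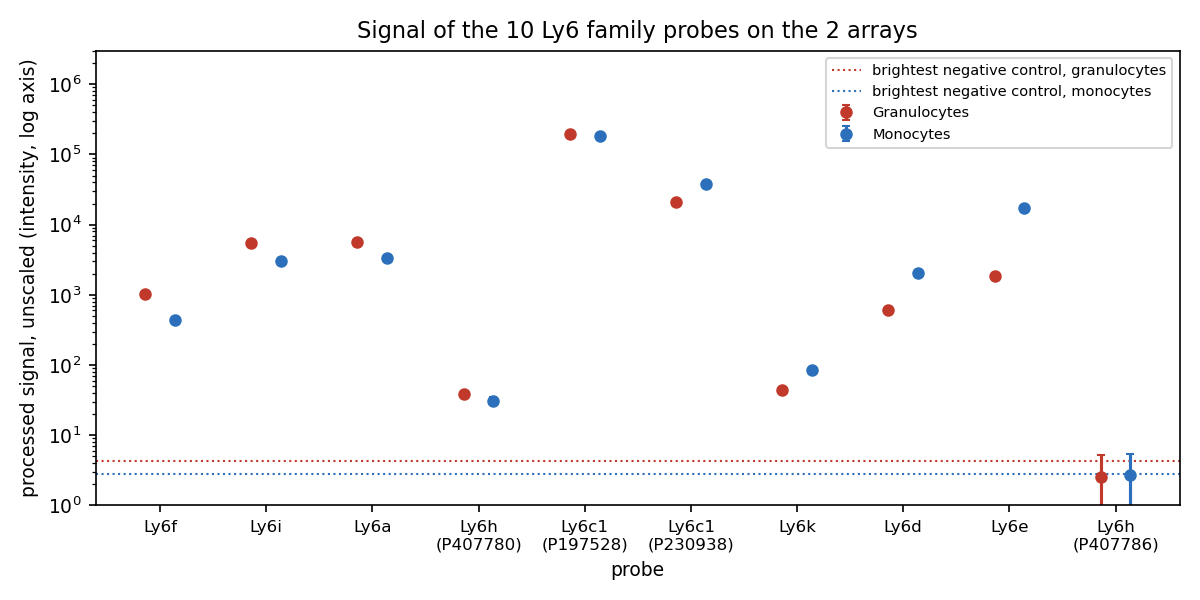
Processed signal of each Ly6 family probe (intensity, log axis) in granulocytes and in monocytes, 1 spot each, before scaling, with bars for the scanner software's error and dotted lines at the brightest negative control spot of each array. Probes run by their scaled difference, from Ly6f to Ly6e. The Ly6h probe at the right end was not well above background on either array.

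Ly6e, which encodes an antigen first known from thymocytes and stem cells and later as an interferon-induced factor that limits the entry of some coronaviruses, had the largest difference of the family. Its probe read 1849 ± 185.0 intensity units in granulocytes, against 17436 ± 1744 in monocytes. After scaling it was 5.15-fold lower in granulocytes, a log2 difference of -2.37 with a software error of 0.20. Without any scaling the difference was -3.24, so both raw and scaled values put Ly6e on the monocyte side, and it was past 4-fold in all 7 settings tried. Of all gene probes with a value, 6.85% lay lower still.

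Ly6f, a less studied member of the cluster, stood at the other end. Its probe gave 1041 ± 104.2 units in granulocytes and 441.8 ± 44.2 in monocytes. The scaled difference was 2.11, or 4.31-fold, and 7.86% of gene probes lay higher. The call at 4-fold depends on the scaling and on the background correction. The difference was 2.06 and 2.01 with the scalings to the median of probes above background and by quantiles, and fell short of 4-fold, in the same direction, at 1.92 in the value table, 1.89 with normexp background correction, 1.59 with spike-in scaling and 1.24 without scaling. Ly6f was thus higher in granulocytes in all 7 settings, by an amount between 1.24 and 2.11.

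By the rule of 4-fold, 1 of the family's 9 measured probes, that of Ly6f, was counted higher in granulocytes, where 8.59% of all gene probes above background were. Likewise 1 of 9, that of Ly6e, was counted higher in monocytes, where 9.11% of gene probes were. These counts lie near the shares over all probes. At 2-fold, 4 member probes were higher in granulocytes and 1 in monocytes, where 30.7% and 19.99% of the gene probes with a value were.

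**Figure D2:**
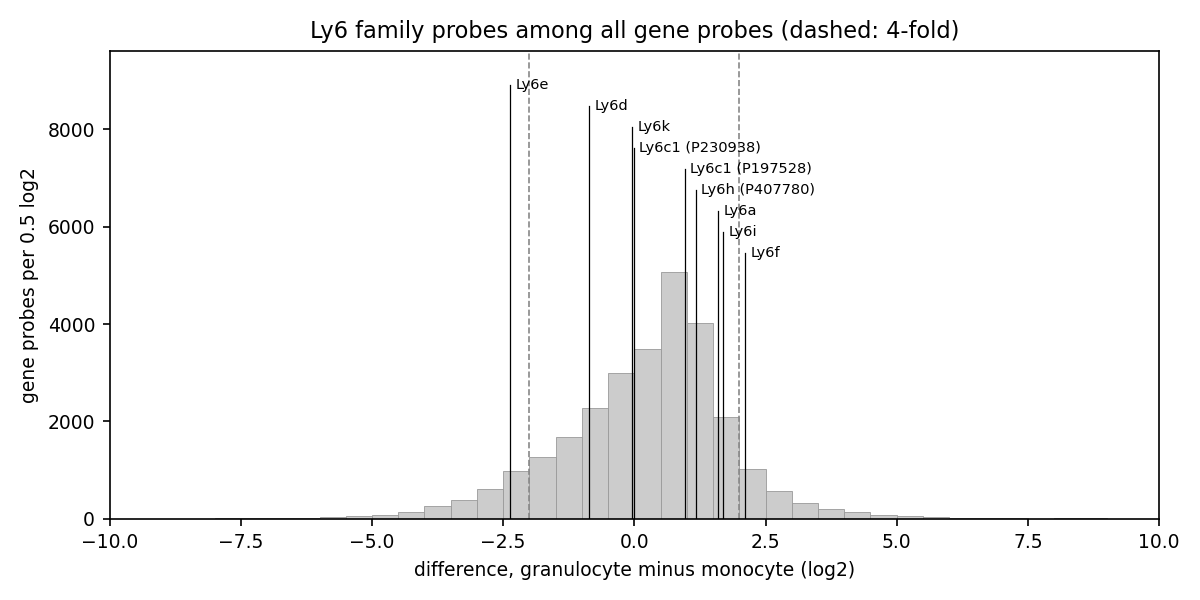
Differences of all gene probes with a value (grey bars, number of probes per 0.5 on the log2 scale) with the 9 measured Ly6 family probes drawn as lines at their own difference. Ly6e at -2.37 and Ly6f at 2.11 lie past the dashed lines at 4-fold, and the other 7 lie between them.

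Ly6i and Ly6a, neighbours whose probes lie 12.1 kb apart, gave like differences. Ly6i, which encodes an antigen close to Ly6c, gave 5451 ± 545.1 units in granulocytes against 3077 ± 307.8 in monocytes. Ly6a gave 5577 ± 557.7 units in granulocytes against 3377 ± 337.7 in monocytes. The scaled differences were 1.70 for Ly6i and 1.60 for Ly6a, 0.10 apart, which is less than the combined software error of 0.29. Both were positive in all 7 settings, from 0.82 to 1.70 for Ly6i and from 0.72 to 1.60 for Ly6a, and in none did they reach 4-fold. The Ly6c1 probe that shares bases with the Ly6a probe was bright on both arrays, and whether Ly6c1 RNA adds to the Ly6a spot was not tested. On the unscaled log2 scale Ly6a gave 0.72 and that Ly6c1 probe -0.89.

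The 2 probes that stand under Ly6c, read here as Ly6c1, gave unlike values, and whether both report that gene was not tested. The probe A_52_P230938, whose first accession is the RefSeq transcript of Ly6c1, read 20743 ± 2074 units in granulocytes and 38325 ± 3833 in monocytes, a scaled difference of -0.01. The probe A_51_P197528 read 197533 ± 19753 units in granulocytes and 185718 ± 18572 in monocytes, a scaled difference of 0.96. The probes differed from each other by 0.97 on the log2 scale, or 1.97-fold, more than the combined software error of 0.29. No spot was flagged as saturated. The first probe was at or below 0 in all 7 settings, down to -0.89 without scaling, whereas the second ran from 0.96 to 0.09 without scaling and turned to -0.10 with quantile normalisation. Neither probe reached 2-fold in any setting. Both probes were bright in both sorted populations, and no difference held for both of them.

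Ly6d, the antigen of lymphoid progenitors biased to the B lineage, had 611.6 ± 61.2 units in granulocytes against 2024 ± 202.4 in monocytes. Its scaled difference was -0.85, or 1.81-fold lower in granulocytes, and it was negative in all 7 settings, between -0.85 and -1.73. Of the B-lineage markers 7 of 8 had a scaled difference above 0, as had 61.1% of all named genes, and their median was 1.083, or 0.21 without scaling. Their summed level was 6.59 times the 75th percentile in granulocytes against 5.54 times in monocytes, whereas their unscaled signals summed to 2237 units in granulocytes against 3437 in monocytes, so that the direction of the sum turns with the scaling. Their part in the Ly6d value was not tested. Ebf1 was not well above background in monocytes. Cd79b, an antigen receptor subunit gene of B cells, was the 1 marker below 0 (-0.28), with 1152 units in granulocytes against 2551 in monocytes.

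Ly6k and Ly6h are family members known from other tissues, Ly6k from testis, where its product takes part in sperm migration, and Ly6h from brain, where its product acts on nicotinic acetylcholine receptors. Ly6k read 44.4 ± 4.84 units in granulocytes and 83.9 ± 8.61 in monocytes, with a scaled difference of -0.05 that turned to 0.26 with normexp background correction and reached -0.92 without scaling. One Ly6h probe, A_51_P407780, read 38.4 ± 4.33 units in granulocytes and 31.1 ± 3.69 in monocytes, with a scaled difference of 1.17, lying between 0.30 and 1.17 over the settings. The other, A_51_P407786, was not well above background on either array, with 2.58 units in granulocytes and 2.69 in monocytes, each with an error as large as the signal. Negative control spots had a median of 2.09 units and a maximum of 4.28 in granulocytes, and a median of 2.15 and a maximum of 2.85 in monocytes. The Ly6h probes lie 76 bases apart by their starts and list the same 4 accessions, and they do not give 1 answer on whether the gene was detected. The pixels of these dim spots varied more, with a coefficient of variation of 31.8% in granulocytes and 30.7% in monocytes for the brighter Ly6h probe, and of 32.5% in granulocytes and 26.3% in monocytes for Ly6k.

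In order of their scaled differences the probes ran Ly6f, Ly6i, Ly6a, Ly6h, Ly6c1 (A_51_P197528), Ly6c1 (A_52_P230938), Ly6k, Ly6d and Ly6e. Neighbours in this order were apart by less than their combined software error for Ly6i and Ly6a (0.10), for Ly6h and the second Ly6c1 probe (0.21) and for the first Ly6c1 probe and Ly6k (0.03). Ly6f and Ly6i were 0.41 apart and Ly6a and Ly6h 0.42, 1 to 2 times that error, and Ly6k and Ly6d were 0.81 apart. Ly6d and Ly6e were 1.51 apart, the widest step of the order. From end to end, the ratio of granulocyte to monocyte signal was 22.2-fold higher for Ly6f than for Ly6e, and scalings that add 1 constant per array cannot change this ratio.

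**Figure D3:**
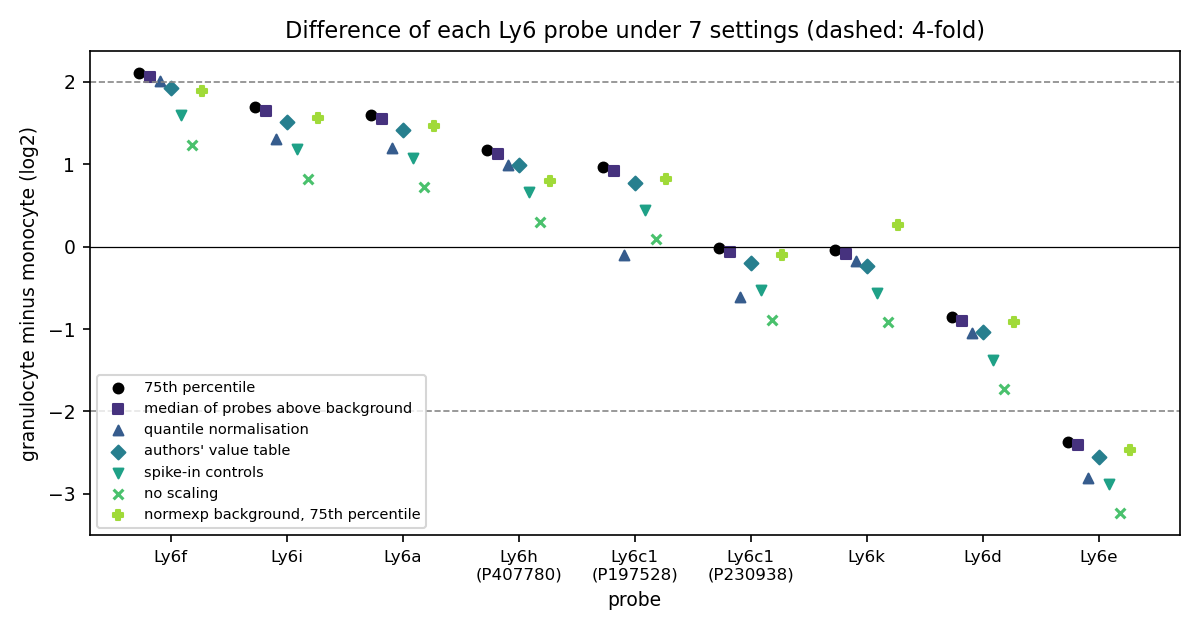
Difference of each measured Ly6 family probe (log2, granulocyte minus monocyte) under scaling to the 75th percentile and 6 alternatives, 1 symbol per setting, with dashed lines at 4-fold. Ly6e stays below -2 under each setting, Ly6f lies on both sides of 2, the Ly6c1 probe P197528 falls below 0 with quantile normalisation alone, and Ly6k lies above 0 with normexp correction alone.

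Since scaling shifts all probes, the members were also set against the median of all gene probes in each setting, which ran from -0.42 without scaling to 0.57 after normexp correction. Relative to that median, Ly6f stood at 1.65, Ly6i at 1.24, Ly6a at 1.14, Ly6h at 0.72 and the Ly6c1 probe A_51_P197528 at 0.50. The Ly6c1 probe A_52_P230938 stood at -0.47, Ly6k at -0.50, Ly6d at -1.31 and Ly6e at -2.82. In all 7 settings 8 of the 9 probes kept their side of the median, and the exception was the Ly6c1 probe A_51_P197528, which lay 0.34 below it with quantile normalisation. Settings that add 1 constant per array move the members and the median nearly alike, so their outcome here was largely fixed in advance. Only quantile normalisation and normexp correction could move a probe much relative to the median.

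Along the cluster, the 3 members at one edge had scaled differences below 0. Ly6d and Ly6k, 34.98 kb apart, gave -0.85 and -0.05, and Ly6e followed with -2.37. The value of Ly6k is within its software error of 0.22 and turned to 0.26 with normexp correction. Ly6e and Ly6i, 24.0 kb apart, differed by 4.06 on the log2 scale, or 16.7-fold in the ratio between the arrays, the widest step between neighbouring members and opposite in sign. From Ly6i to Ly6h at the other edge the scaled differences were positive, apart from the Ly6c1 probe at -0.01, which is within its software error of 0.20. The stretch held 13 other gene probes, and 7 of them gave a value or a bound. Of these 7, 1 passed 4-fold on the granulocyte side and 0 on the monocyte side, around a median of 0.45. Of all gene probes above background 8.59% and 9.11% passed, and the median of those with a value was 0.46.

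**Figure D4:**
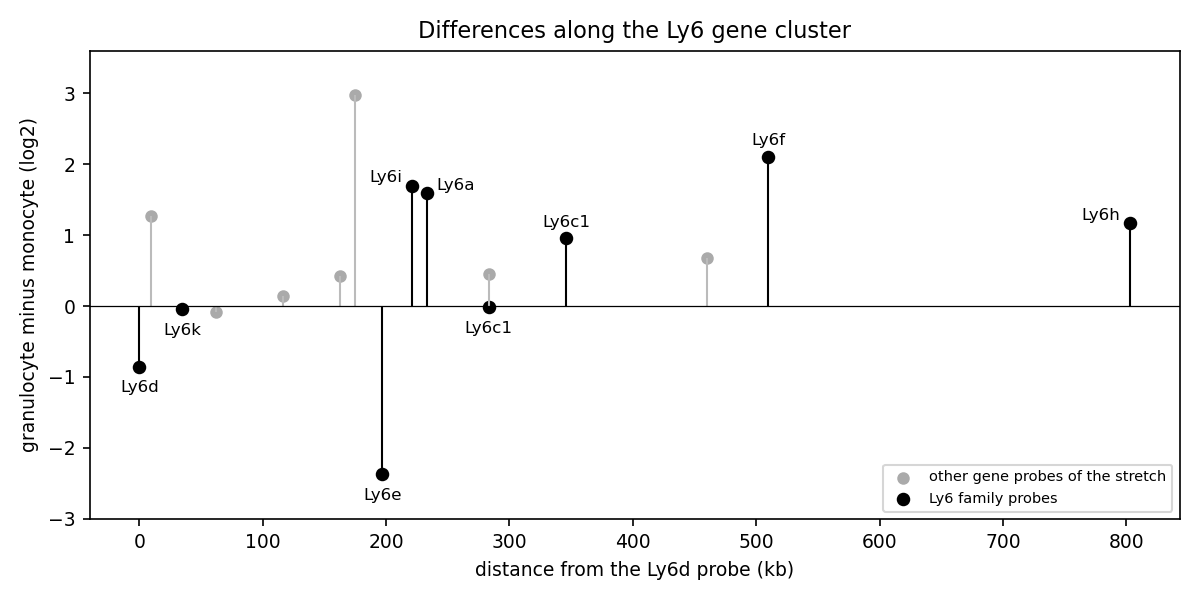
Difference of each gene probe with a value (log2, granulocyte minus monocyte) against its distance from the Ly6d probe along chromosome 15 (kb). Black points are Ly6 family probes and grey points other probes of the stretch. Ly6e at -2.37 stands 24.0 kb from Ly6i at 1.70, and 1 grey point lies higher than any member, at 2.98.

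Other genes of the three-finger superfamily were read from a list of 39 names, 2 of which stand for 1 gene, Ly6m. From this list 33 genes were on the array under a current symbol, and 23 were above background on at least 1 array. Of these 23, 2 passed 4-fold on the granulocyte side and 0 on the monocyte side, against 8.54% and 10.4% of all named genes read by 1 probe each. Lypd6b had 657.0 units in granulocytes against 26.4 in monocytes (5.51). Plaur, the receptor for urokinase, had 47074 units in granulocytes against 17274 in monocytes (2.32). Slurp1, whose product is secreted (1.87), and Lypd2 (1.68) followed. On the monocyte side Bambi, a pseudoreceptor for TGF-beta ligands, had 277.0 units in granulocytes against 1554 in monocytes (-1.62), and Ly6g6c (-0.47), Lynx1 (-0.36) and Lypd6 (-0.29) came next. The list's median was 1.1004, against 0.45 over named genes, and 18 of the 23 lay above 0, where 61.1% of all named genes did. Many of these genes were dim on both arrays, and a probe with equal raw signal on both has a scaled difference of 0.87. Without scaling the list's median was 0.23, and 1 gene passed 4-fold on each side, as with spike-in scaling. With quantile normalisation 1 passed on the granulocyte side and 0 on the monocyte side.

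Genes that build, attach and remodel the GPI anchor lay on both sides of 0. Of 30 above background on at least 1 array, 1 passed 4-fold on the granulocyte side and 3 on the monocyte side, where 8.54% and 10.4% of all named genes did. Without scaling 0 passed on the granulocyte side and 6 on the monocyte side. The median was 0.07, or -0.80 without scaling. Mppe1, an enzyme of anchor remodelling, had 22140 units in granulocytes against 8249 in monocytes (2.30), followed by the subunit gene Pigx (1.73). Pgap1, which removes a fatty acid from the inositol of the anchor, was not well above background in granulocytes, with 2.36 units against 299.3 in monocytes, so that it was at least 17.3-fold lower. Pigf, needed to add the terminal ethanolamine phosphate, had 94.2 units in granulocytes against 1672 in monocytes (-3.28).

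Interferon-induced genes were read because interferons raise Ly6a, Ly6e and Ly6c in many mouse cells. All 42 on the array were above background on at least 1 array, and 7 passed 4-fold on the granulocyte side against 7 on the monocyte side, where 8.54% and 10.4% of all named genes did. The granulocyte count fell to 2 without scaling, 3 with spike-in scaling, 4 with quantile normalisation and 5 in the value table. The monocyte count stayed at 7 in these settings, and with normexp correction both counts were 5. The median was 0.47, near that of all named genes, and -0.40 without scaling. At the granulocyte end stood Rsad2, an antiviral enzyme gene (2.95), and Oas3 (2.93). At the monocyte end Mx1, an antiviral GTPase gene, had 5.62 units in granulocytes, not well above background there, against 2076 in monocytes, at least 119.9-fold lower in granulocytes, and Mx2 had -5.32. Ly6e and Ly6a both lay inside the range of this list, which passes 4-fold on both sides. Whether interferon bears on either value was not tested.

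**Figure D5:**
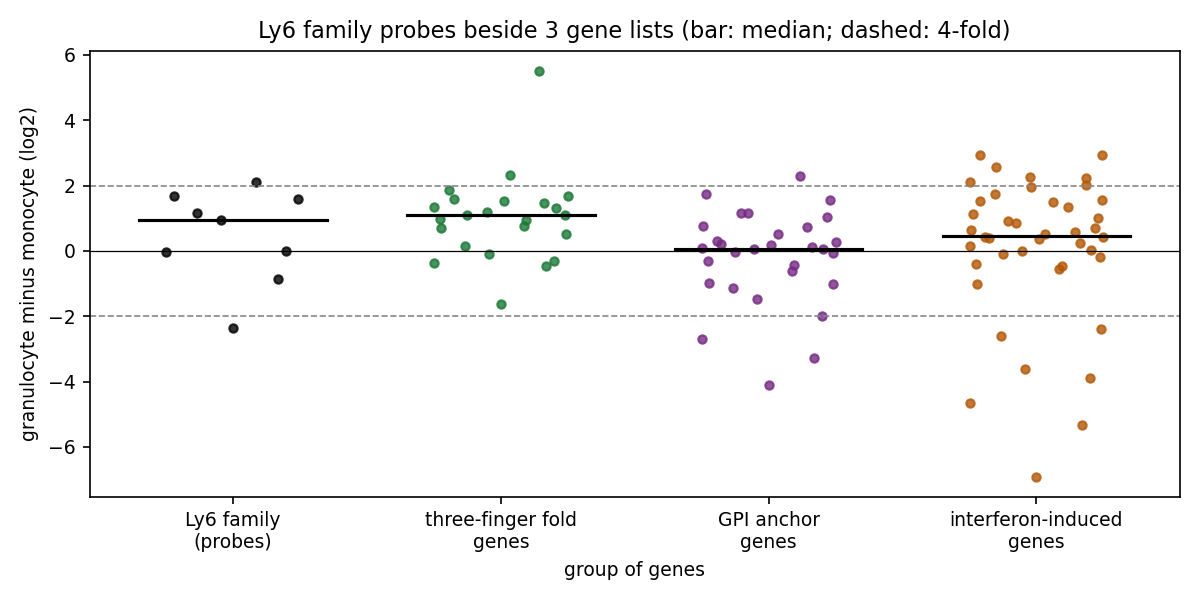
Differences (log2, granulocyte minus monocyte) of the 9 measured Ly6 family probes and of the genes of 3 lists, 1 point per probe or gene and a bar at each median, with bounds drawn at their value. The medians were 0.96 for the Ly6 probes, 1.1004 for the three-finger genes, 0.07 for the GPI anchor genes and 0.47 for the interferon-induced genes.

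Marker lists of other marrow cells were counted by the same rule, which 8.54% of all named genes passed on the granulocyte side and 10.4% on the monocyte side, the side of Ly6e. Of plasmacytoid dendritic cell markers, 4 of 5 passed 4-fold on the monocyte side. Their summed level was 5.23 times the 75th percentile in granulocytes and 27.8 times in monocytes, and Siglech was not well above background in granulocytes. Of the 4 NK-cell markers above background on at least 1 array 3 passed on that side, with sums of 1.42 times in granulocytes and 14.3 times in monocytes. Ncr1 was not well above background on either array and Eomes not in granulocytes. Plasma cell markers had 2 of 4 on that side, with sums of 2.34 times in granulocytes and 17.0 times in monocytes, and Tnfrsf17 and Prdm1 were not well above background in granulocytes. T-cell markers lay on both sides of 0, with Lck (-3.98) and Cd3g (-3.44) past 4-fold on the monocyte side, Cd8a at -1.76, and Cd3d (1.76), Cd4 (0.80) and Cd3e (0.44) above 0. Their sums were 5.22 times in granulocytes and 3.91 times in monocytes, whereas the unscaled signals summed to 1773 units in granulocytes and 2425 in monocytes. With normexp correction fewer markers passed on the monocyte side, 2 of the plasmacytoid list, 2 of the NK-cell list, 1 of the plasma cell list and 1 of the T-cell list, and the median of the plasma cell list went to -0.12 and that of the T-cell list to 0.02. Bst2 is in both the plasmacytoid and the interferon lists. In monocytes it gave 14317 of the 17254 unscaled units of the plasmacytoid list. Likewise Nkg7 gave 7736 of the 8868 units of the NK-cell list and Jchain 10346 of the 10571 units of the plasma cell list. The sums of these lists in monocytes thus rest mostly on 1 gene each. Stem and progenitor markers, which bear on Ly6a as the Sca-1 gene, had 1 of 7 past 4-fold on the monocyte side, Cd34 (3 of 7 without scaling), and sums of 2.56 in granulocytes and 6.29 in monocytes, and Procr and Meis1 were not well above background in granulocytes. Endothelial markers, which also bear on Ly6a and Ly6c1, had 0 of 6 past 4-fold either way (1 on the monocyte side without scaling) and sums of 0.83 in granulocytes and 0.60 in monocytes, with Cdh5 not well above background in granulocytes and Emcn not in monocytes. Their unscaled signals summed to 280.3 units in granulocytes and 373.8 in monocytes. Erythroid markers (0 of 5) had sums of 8.72 in granulocytes and 2.77 in monocytes. Eosinophil markers (0 of 3) had sums of 9.28 in granulocytes and 5.84 in monocytes, against unscaled signals of 3151 units in granulocytes and 3624 in monocytes, with Il5ra not well above background on either array. In sorted bulk RNA more cells of a type and more RNA per cell cannot be told apart, and the part of such cells in the Ly6 values was not tested.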

How the data were processed

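Cy3-labelled cRNA from granulocytes and from monocytes was hybridised to 1 Agilent-014868 array each, after linear amplification, per the labels' protocols. Per the file headers, Agilent Feature Extraction 10.5.1.1 made the authors' processed intensity by spatial and multiplicative detrending, with local background correction off, substitute values allowed for spots near background, and no scaling between arrays. The authors' deposited value table is on a log2 scale and equals the log2 processed intensity plus -0.24 in granulocytes and -0.92 in monocytes (100.0% of probes with 1 spot within 0.01, both column medians 4.80). How the authors chose these constants is not stated there.

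From the files, control spots and outlier spots (143 for granulocytes, 103 for monocytes) were removed, 0 spots were saturated, spots of a probe were averaged, and log2 intensity was taken relative to each array's 75th percentile. Genes outside the family were named through RefSeq accessions and symbols of GRCm38.p6 (33055 of 41089 probes with values) and read by the probe above background on most arrays, then the brightest. A probe above background on 1 array gives a bound, from the higher of the probe's own dim signal and the lowest one called above background there. Calls use 4-fold, bounds included. No test was possible with 1 array per group, and their number sets the precision.

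Every member probe is named, and from the other lists the 4 (three-finger genes) or 2 with the largest difference each way, plus markers. Members and lists were chosen with earlier results of these data known. Alternatives were other scalings, none, limma 3.58.1 normexp (offset 50), the value table, other fold sizes and filters. The steps were tested on simulated data. Python 3.11.15 and R 4.3.3 were used.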

Additional observations from a re-analysis of the deposited data

Results flagged for a closer look

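One probe with no gene name and no listed accession, A_52_P771912, lies in mm8 on chromosome 15 at 74872553 to 74872612 on the plus strand, opposite to the Ly6c1 probe A_52_P230938. Its capitals below are the 44 bases that are the reverse complement of the Ly6c1 probe, and it was the 1 array probe that shares 20 or more bases in a row with a member probe on either strand, a length chosen after seeing the data.

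A_52_P771912: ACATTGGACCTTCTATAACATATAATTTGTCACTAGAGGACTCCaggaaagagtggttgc

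Its signal stood outside the main measurement and above the brightest negative control spots, which reached 4.28 units in granulocytes and 2.85 in monocytes. It read 51.02 units in granulocytes and 68.23 in monocytes, well above background on both arrays, with a scaled difference of 0.45. The Ly6c1 probe on the other strand was 406.5 times brighter in granulocytes and 561.7 times in monocytes, as a description of 2 different probes whose binding may differ. No cause was tested.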

How the results depend on the processing

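No paired analysis was possible because each cell type has 1 array. With 1 array per group the alternatives say nothing of the spread between mice. The count of Ly6 probes at least 4-fold higher in granulocytes, 1 (Ly6f), became 0 without scaling, with spike-in scaling (9 control probes), after normexp correction and in the value table, 4 at 2-fold and 0 at 8-fold. That in monocytes, 1 (Ly6e), became 0 at 8-fold and was 1 under the other alternatives. Over all gene probes, 2495 and 2644 were counted higher in granulocytes and in monocytes. These became 1010 and 5170 without scaling, 1408 and 1234 after normexp correction, 8616 and 5607 at 2-fold, and 891 and 1040 at 8-fold. With spike-in scaling the granulocyte count was 1436 and the monocyte count 3959. Scalings that add 1 constant move all members alike, so their order there was fixed in advance. The cause of the changes after normexp correction was not tested. Of the 9 measured probes, 7 kept their sign over the 7 settings. Spots near background limit Ly6h and Ly6k the most.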

Other observations

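The grey point above all members in the plot along the cluster was chosen after its value was seen. It is a probe for a thymus cDNA clone of the RIKEN library, listed in the files without a gene symbol and placed on the plus strand 175.2 kb from the Ly6d probe, where the Ly6e probe lies at 196.9 kb. It read 380.0 units in granulocytes against 88.0 in monocytes, a scaled difference of 2.98, while Ly6e on the same strand gave -2.37. The probe at 163.0 kb from Ly6d, for a predicted transcript, gave 32.9 units in granulocytes against 45.0 in monocytes and a difference of 0.42. Of other family relatives inside the stretch, named for their place, Ly6m read 22.6 units in granulocytes and 37.5 in monocytes (0.14). Both Gml probes were not well above background on either array. The Gml2 probe read 9.28 units in granulocytes, not well above background there, against 18.4 in monocytes, a bound of -0.09.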
